A study of Mus musculus with 3 samples.

Results

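The BCL2 family decides whether the mitochondria of a cell release cytochrome c and set off apoptosis, and 10 of its genes were followed here through the maturation of CD133+ bone marrow cells. The genes were taken by name from the 27998 genes of the matrices. They are the anti-apoptotic Bcl2, Mcl1, Bcl2l1, Bcl2a1a, Bcl2a1b and Bcl2a1d, the pore-forming Bax and Bak1, and the BH3-only Bcl2l11 and Bid. All 10 had UMIs in each of the 3 libraries and all 10 passed the filter on low sums in the comparison of bands. A UMI is a tag that marks 1 captured mRNA molecule, so that PCR copies are counted once.

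The cells were sorted by flow cytometry for CD133, the product of Prom1, from the bone marrow of mice labelled C57BL/6. The young and old libraries each pooled the cells of 3 mice, and the sort whose cell number matches the control library came from 3 mice of the substrain C57BL/6N. The young and the control library carry an age of 3 months in their labels. The old library carries 27 months, whereas the design text gives 18.5 months and names another tissue. The labels give no treatment for any library and do not say how the control library differs from the young one. With 1 library per condition the spread between mice was not measured, and no test was made between libraries.

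The libraries held 8362 (young), 10869 (control) and 10597 (old) cells, with 81434722 to 138030352 UMIs in all and medians of 9560 to 13039 UMIs per cell. After the quality limits 7378, 9780 and 9681 cells were left. The cells are called endothelial-like in the series title. However, in the cells kept for the bands below, 6 endothelial markers together came to 7.54 to 8.90 CPM (UMIs scaled to a total of 1000000). In the same cells 5 neutrophil precursor markers (Ltf, Camp, Ngp, Lcn2, Chil3) came to 113585 to 131849 CPM. Cells that carried 3 or more markers from the list of another cell type, with 10 or more UMIs of that list per 10000, were set aside. The lists covered other blood cells and also endothelial and mesenchymal cells. These were 776 young cells (10.5%), 113 control cells (1.16%) and 87 old cells (0.899%), none of them classed as endothelial. Between 120 and 161 cell barcodes were shared by a pair of libraries.

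Granule genes are switched on in waves as neutrophils mature. Mpo, which encodes myeloperoxidase, is a gene of the promyelocyte stage, and Retnlg and Mmp8 come on in the later stages. The remaining cells were therefore laid out in 5 bands by these genes, in UMIs per 10000 UMIs of the cell. The high-Mpo band had at least 40 of Mpo and the mid-Mpo band from 10 to under 40. The other bands had Mpo under 10 and differed in Retnlg plus Mmp8, with under 5 in the low band, 5 to under 20 in the early band and at least 20 in the late band. The high-Mpo bands held 1021 to 1457 cells and the late bands 333 to 1627 cells, and 27 to 56 cells per library with high values of both stayed outside.

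The family acts through direct contacts between its proteins at the outer mitochondrial membrane. BAX and BAK1 form the pore. BCL2, MCL1, BCL-XL (the product of Bcl2l1) and A1 (of the Bcl2a1 genes) hold them and the BH3-only proteins in a groove. BIM (of Bcl2l11) and BID bind that groove, or activate BAX and BAK1 directly, through a short helix, the BH3 domain. Neutrophils live for a short time, and MCL1, a protein with rapid turnover, is known as their main survival factor in this family.

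The stretch of coding sequence that specifies the BH3 core is shown because pro- and anti-apoptotic members share it. It was searched in frame in the forward strand as a leucine codon (CTN, TTA or TTG), 3 codons of any kind, a glycine codon (GGN) and GAT or GAC, in 1 GENCODE M21 transcript per gene on the mouse build GRCm38. The motif occurred in 13.2% of 21763 coding sequences searched, so a match alone does not mark a BH3 domain. It occurred once in 7 members, and the capitals below mark its 18 bases within 45 bases of coding sequence, read 5′ to 3′ along the gene.
Bcl2: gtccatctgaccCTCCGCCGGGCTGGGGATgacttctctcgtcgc
Mcl1: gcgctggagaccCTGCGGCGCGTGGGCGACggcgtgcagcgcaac
Bcl2l1: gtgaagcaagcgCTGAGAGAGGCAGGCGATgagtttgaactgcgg
Bcl2l11: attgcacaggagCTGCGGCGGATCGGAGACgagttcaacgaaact
Bax: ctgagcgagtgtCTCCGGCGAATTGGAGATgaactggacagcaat
Bak1: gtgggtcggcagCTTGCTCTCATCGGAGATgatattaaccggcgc
Bid: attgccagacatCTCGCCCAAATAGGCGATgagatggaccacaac

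The window of Bcl2 lies in exon 1 at chr1:106712569-106712613 on the minus strand, and that of Mcl1 in exon 1 at chr3:95659424-95659468 on the plus strand. The window of Bcl2l1 lies in exon 2 at chr2:152829691-152829735 (minus strand) and that of Bcl2l11 in exon 3 at chr2:128147138-128147182 (plus strand). The window of Bax lies in exon 3 at chr7:45465991-45466035, that of Bak1 in exon 4 at chr17:27022525-27022569 and that of Bid in exon 4 at chr6:120897283-120897327, all on the minus strand. The 3 Bcl2a1 genes had no match, which says only that these letters are not in their coding sequences. In that annotation Bax overlaps Gm45808 on the same strand, Bid overlaps Bcl2l13 and Gm17812 on the other strand and Gm44260 on its own, and Bak1 overlaps Ggnbp1 on the other strand. Bcl2a1b overlaps Gm29094 on the same strand and Bcl2a1d overlaps Gm10634 on the other. Bcl2 overlaps D630008O14Rik on the other strand and Mir3473f and Gm37053 on its own. How far overlaps on the same strand affected the counts of these members was not tested.

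The Bcl2a1 genes are close copies on chromosome 9, at chr9:88956900-88962419 (Bcl2a1a), chr9:89199209-89207827 (Bcl2a1b) and chr9:88723285-88731914 (Bcl2a1d). Their coding sequences of 516 bases differed at 11 positions between Bcl2a1a and Bcl2a1b, at 7 between Bcl2a1a and Bcl2a1d and at 6 between Bcl2a1b and Bcl2a1d. The first 60 coding bases are shown, with their 6 variable positions in capitals. They were chosen as a stretch of that length where the copies vary at the most positions.
Bcl2a1a: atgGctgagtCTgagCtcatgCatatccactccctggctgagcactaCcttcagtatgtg
Bcl2a1b: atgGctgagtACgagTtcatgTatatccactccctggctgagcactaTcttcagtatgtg
Bcl2a1d: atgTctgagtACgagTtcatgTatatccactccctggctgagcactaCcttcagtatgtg
Of the windows of 50 bases in the last 400 bases of each transcript, where a 3′ kit reads, 57.3% (Bcl2a1a), 58.4% (Bcl2a1b) and 84.3% (Bcl2a1d) also occurred in a transcript of another copy. How reads from such shared windows were counted, or whether they were counted at all, is therefore uncertain, and the levels of all 3 are given as such. Counts at the 3′ end also cannot tell the long and short isoforms of Bcl2l1, Mcl1, Bcl2l11 or Bax apart.

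Among the 10 members, the share of anti-apoptotic messages rose from the high-Mpo to the late band, mainly through more Mcl1 and less Bax. Shares and levels of the family cover these 10 genes only, not the other genes of the family. The anti-apoptotic members made up 16.4% (exact binomial 95% interval 15.4 to 17.5), 10.5% (9.77 to 11.3) and 9.87% (9.08 to 10.7) of the family's UMIs in the high-Mpo bands of the young, control and old library. In the late bands they made up 50.9% (46.5 to 55.2), 47.9% (42.8 to 53.05) and 38.1% (36.1 to 40.04). The share rose from band to band in each library, and in each of them the widest step was that from the early to the late band. The mean difference between late and high-Mpo bands was 33.3 percentage points (SD 4.70, n = 3 libraries, two-sided exact permutation test of signs p = 0.25, the smallest p that 3 libraries allow). This share is a ratio within each sum and so does not depend on how libraries are scaled. These and all later intervals cover counting error only. UMIs of a 3′ kit are not scaled by gene length, and since capture can differ between genes the share is compared between bands, not read as a ratio of molecules between genes.

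**Figure D1:**
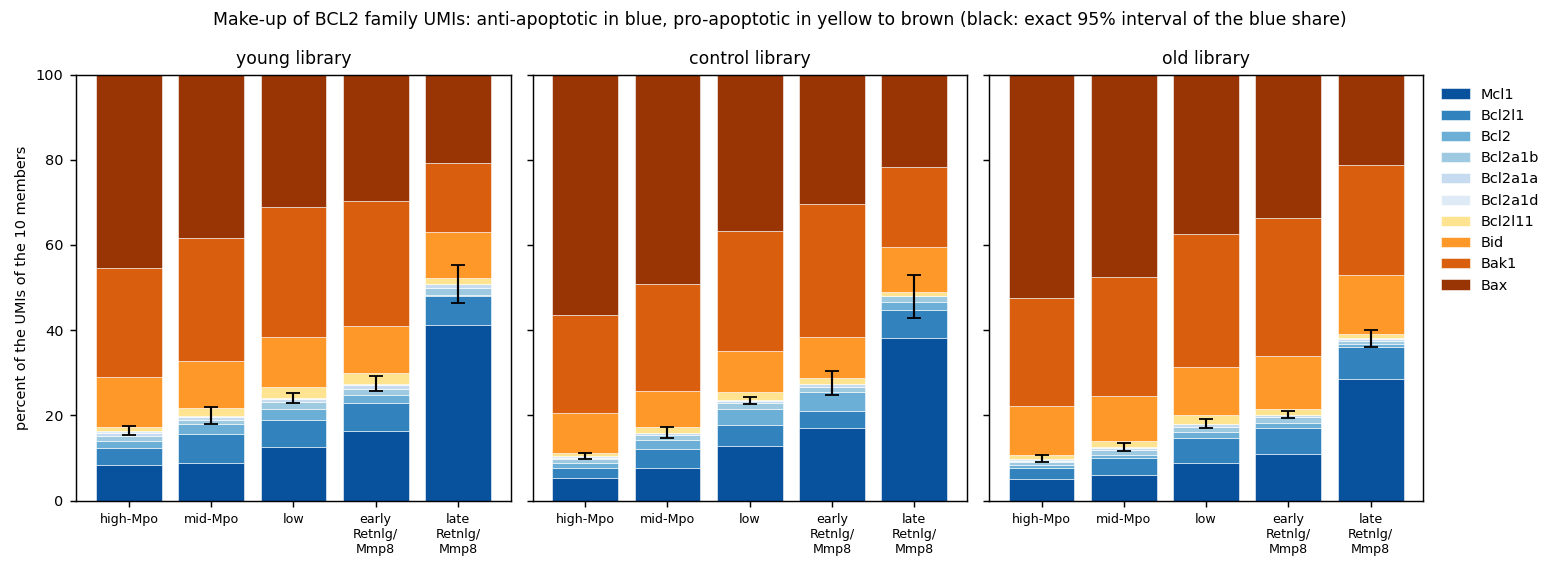
Stacked bars give the percent of the family's UMIs that each of the 10 members contributed, for the 5 bands (x axis) of each library, with anti-apoptotic members in blue. The blue share climbs from 9.87% to 16.4% in the high-Mpo bands to 38.1% to 50.9% in the late bands.

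Mcl1 and Bax changed most as shares of the family, Mcl1 by 29.8 percentage points (SD 5.38) and Bax by -30.2 (SD 5.06, n = 3 libraries). Per Mcl1 UMI there were 5.43 (young), 10.4 (control) and 10.4 (old) Bax UMIs in the high-Mpo bands, and 0.500, 0.568 and 0.744 in the late bands. The ratio fell at every step in every library, with values of 4.32, 6.49 and 8.06 in the mid-Mpo bands, 2.49, 2.88 and 4.23 in the low bands and 1.82, 1.79 and 3.05 in the early bands. The 10 members together came to 326, 361 and 357 CPM in the high-Mpo bands and 202, 202 and 175 CPM in the late bands.

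Mcl1 had 27.3 CPM in the young, 19.6 CPM in the control and 18.03 CPM in the old high-Mpo band. It had 83.5, 77.3 and 50.1 CPM in the late bands of the same libraries. All late values lay above all high-Mpo values. Counted per cell without any scaling, 1000 cells of the high-Mpo bands gave 328, 237 and 263 Mcl1 UMIs and 1000 cells of the late bands 536, 438 and 415, although late cells had fewer UMIs in all (medians of 4642 to 7865 against 12283 to 15122). In the same order of libraries, trimming by UMI count left 403 of 808, 333 of 469 and 1627 of 1719 late cells. It left 1304 of 1386, 1457 of 1735 and 1021 of 1239 high-Mpo cells. The part of trimming in values per cell between these bands was not tested.

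Bax, one of the pore-forming pair, had 148 CPM (young), 204 CPM (control) and 187 CPM (old) in the high-Mpo bands and 41.8, 43.9 and 37.3 CPM in the late bands. Its level fell at each step in each library. Bak1, the other, had 83.7, 82.4 and 91.1 CPM in the high-Mpo bands and 32.9, 38.1 and 44.99 CPM in the late bands. Both pore genes thus had lower levels late in all 3 libraries on the CPM scale. On that scale the median gene fell too. In the fit with plain library size described below it had -0.97 on the log2 scale, beside -2.17 for Bax and -1.12 for Bak1. Bid, whose protein links death receptors to the mitochondria, had 37.5, 34.0 and 41.0 CPM in the high-Mpo bands and 22.0, 21.2 and 24.4 CPM in the late bands.

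**Figure D2:**
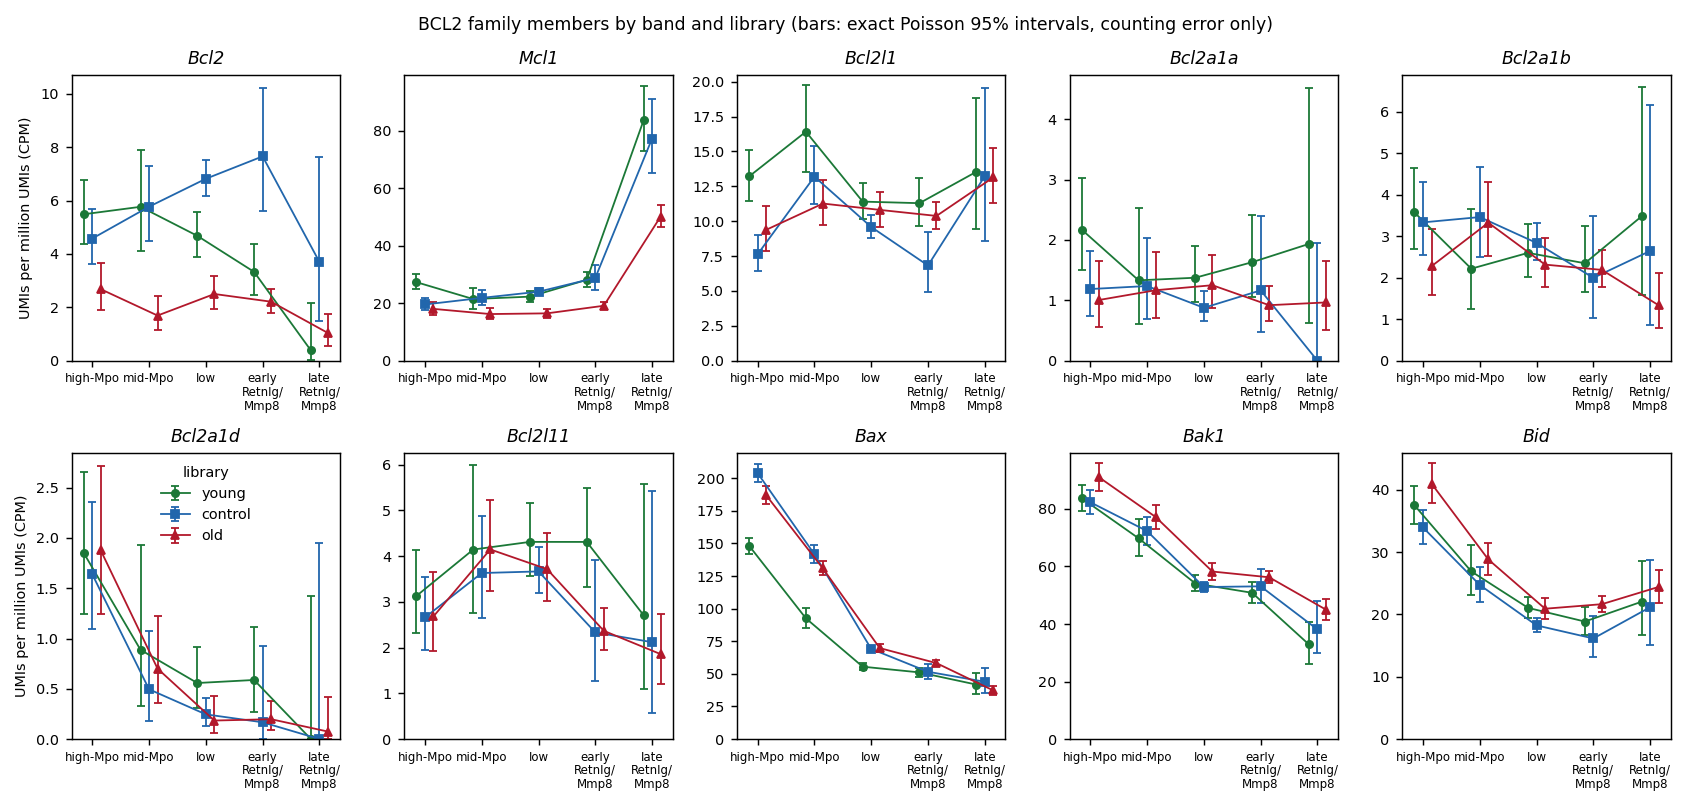
Each panel plots 1 member, with the band on the x axis and CPM on the y axis, as points for the 3 libraries with exact Poisson 95% intervals. Mcl1 rises at the last step to 50.1 to 83.5 CPM, while Bax falls from 148 to 204 CPM to 37.3 to 43.9 CPM.

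The other members were scarce. Bcl2l1 had 13.2, 7.63 and 9.38 CPM in the high-Mpo bands of the young, control and old library and 13.5, 13.2 and 13.1 CPM in the late bands. Bcl2 stayed at or below 7.66 CPM in every band of every library, Bcl2l11 at or below 4.31 CPM, Bcl2a1b at or below 3.57 CPM and Bcl2a1a at or below 2.17 CPM. Values from such sums rest on few UMIs, and the late band of the young library had 1 UMI of Bcl2 in 2585285.

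For a test, UMIs were summed over the cells of each library and band, and the 15 sums were fitted in edgeR with the library as a block. The libraries served as the replicates, and p-values were adjusted over all 10730 genes tested. The answer depends on the scaling. TMM, which assumes that most genes do not change, was the main one. Plain library size moved the median gene by -0.88 on the log2 scale between late and high-Mpo bands. Between these bands 35.3% of genes were called higher and 38.1% lower with TMM, so its assumption is in doubt there. A CPM is a share of all UMIs, so a rise of abundant messages and a loss of the others cannot be told apart from the sums. Both scales are therefore given for the changes described. The exceptions are Bad, Bbc3, Pmaip1, Fas and Fbxw7, genes outside the members that are given with TMM only.

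From the high-Mpo to the late band, Mcl1 and Bcl2l1 rose and Bax and Bak1 fell. Bcl2a1d was also called lower, but it passed the filter on low sums through the bands where it was high. Among all genes 35.3% were called higher and 38.1% lower. The members called were 2 of 10 higher and 3 of 10 lower, both below these shares. Mcl1 rose by 2.52 (SE 0.10, adjusted p = 5.33e-14) on the log2 scale with TMM and by 1.67 (SE 0.11, adjusted p = 7.69e-11) with library size. Bax changed by -1.31 (SE 0.10, adjusted p = 8.99e-10) and by -2.17 (SE 0.12, adjusted p = 6.67e-12). These 2 genes were called in the same direction in all 10 alternative settings, with Mcl1 between 1.67 and 2.80 and Bax between -2.17 and -1.16.

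Bcl2l1 rose by 1.30 (SE 0.16, adjusted p = 4.32e-07) with TMM and by 0.42 (adjusted p = 0.0263) with library size. Per cell its UMIs were fewer in the late than in the high-Mpo bands, at 86.8, 75.1 and 109 against 159, 92.7 and 137 per 1000 cells, so its direction holds relative to the other genes and not per cell. Bak1 changed by -0.25 (SE 0.10, adjusted p = 0.027) with TMM and by -1.12 (adjusted p = 6.64e-10) with library size. With TMM its adjusted p was 0.111 without the control library and 0.215 without the young library, 0.146 with the band limits doubled and 0.138 with them halved.

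Bcl2a1d had 1 UMI in all over the late bands. The 3 high-Mpo bands held 29, 29 and 28 UMIs and the late bands 0 (young), 0 (control) and 1 (old), a ratio of late to high-Mpo CPM of 0.0313 over the 3 libraries (exact 95% interval 0.000783 to 0.179). Taken as 3 counts, the limit that a count of 0 allows was 1.16 CPM in the young and 1.59 CPM in the control late band, against 1.85 and 1.64 CPM in the high-Mpo bands. The exact 95% intervals reached 1.43 CPM (young) and 1.95 CPM (control), so in the control library alone a lower level was not detectable at this depth. In the fit Bcl2a1d was called lower on both scales (adjusted p = 0.000501 with TMM). As it passed the filter on low sums through the bands where it was high, this call is no independent support for a fall. Bcl2a1a and Bcl2a1b, its near copies, were not called on either scale, with 0.46 (SE 0.42) and 0.26 (SE 0.31) on the log2 scale with TMM, and -0.43 and -0.63 with library size.

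The scaling decided the direction of Bid, Bcl2a1a, Bcl2a1b and Bcl2l11. Bid had 0.14 (SE 0.10, adjusted p = 0.187) with TMM and was called lower at -0.74 (adjusted p = 5.25e-07) with library size. Bcl2l11 had 0.48 (adjusted p = 0.123) and -0.41 (adjusted p = 0.158). Bcl2 had -0.43 (adjusted p = 0.382) with TMM and was called lower at -1.30 (adjusted p = 0.00724) with library size. With library size 2 members were higher and 5 lower, beside 16.7% and 64.7% of all genes.

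**Figure D3:**
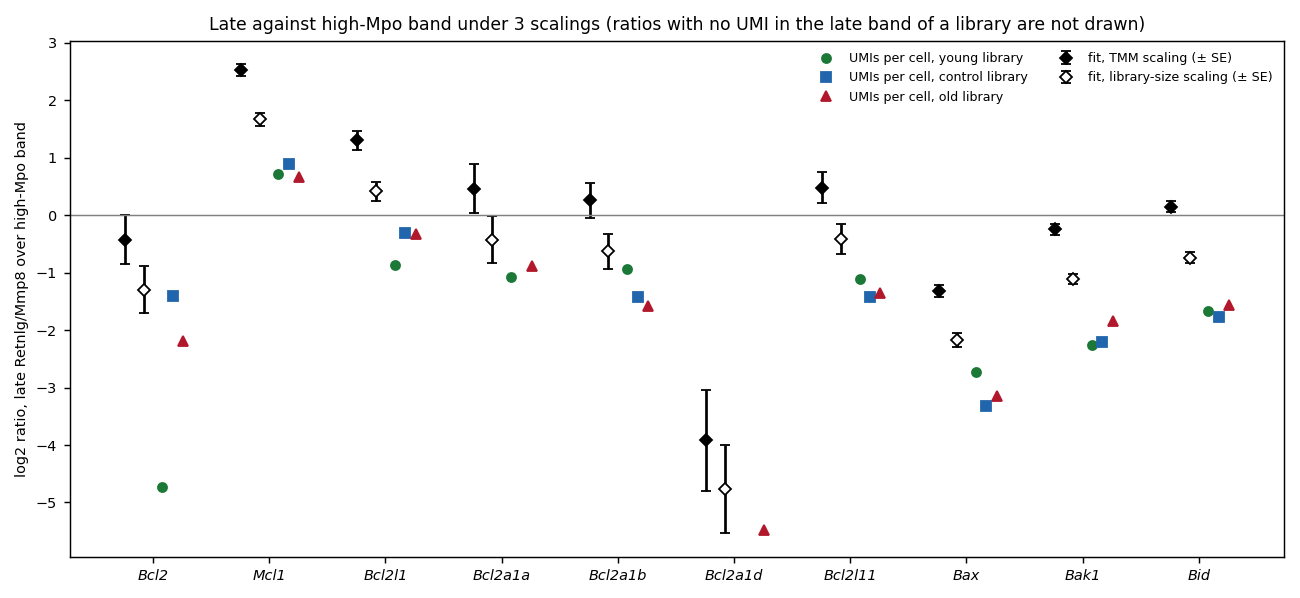
For each member (x axis), the y axis gives the log2 ratio of the late over the high-Mpo band, as fitted with TMM (filled diamonds, ± SE), as fitted with library size (open diamonds, ± SE) and as UMIs per cell in each library (coloured). Mcl1 lies above 0 on every scale and Bax below 0, while Bcl2l1 lies above 0 in both fits and below 0 per cell.

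The bands in between show where each member moved. From the high-Mpo to the mid-Mpo band Bcl2l1 rose by 0.70 (SE 0.13, adjusted p = 0.000308) and Bcl2l11, which encodes BIM, by 0.80 (SE 0.19, adjusted p = 0.00181). Bax (-0.30, SE 0.09), Bid (-0.22, SE 0.08) and Bcl2a1d (-1.08, SE 0.35) fell, with adjusted p of 0.00866, 0.031 and 0.0182, and had -0.56, -0.48 and -1.35 with library size. The rise of both Bcl2l1 and Bcl2l11 also passed with library size (0.43 and 0.53, adjusted p = 0.0146 and 0.0228), where 2 members were higher and 4, Bak1 (-0.23) included, lower, beside 9.72% and 41.6% of all genes. With the band limits doubled the values of Bcl2l11 (0.39, adjusted p = 0.35) and Bax (-0.03, adjusted p = 0.89) did not pass. At this step 21.6% of all genes were called higher and 21.3% lower, and library size moved the median gene by -0.26. The calls of Bid and Bcl2a1d did not hold without the old library (adjusted p = 0.167 and 0.0854) or without the control library (0.124 and 0.168), and that of Bid not without the young library (0.0734). With the band limits doubled they had adjusted p of 0.254 and 0.066, and without trimming by UMI count 0.0563 and 0.0538. In all, Bid was called in 4 and Bcl2a1d in 5 of 10 alternatives. The limit that the filter sets on the call of Bcl2a1d holds at this step too.

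From the mid-Mpo to the low band Bax fell by a further 0.60 (SE 0.09, adjusted p = 2.99e-05) on the log2 scale with TMM. Mcl1 rose by 0.38 (SE 0.10, adjusted p = 0.00523), which library size reduced to 0.07 (adjusted p = 0.619). Here 19.8% of all genes were called higher and 18.5% lower, and library size shifted the median gene by -0.31. The fall of Bax was called on both scales (-0.91, adjusted p = 1.05e-06, with library size). With library size 5 members were lower, which added Bak1 (-0.41), Bid (-0.42), Bcl2l1 (-0.33) and Bcl2a1d (-1.13), beside 44.3% of all genes lower and 5.97% higher.

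From the low to the early band no member was called. This holds for edgeR and for DESeq2, and 1 member, Mcl1, passed an unadjusted p of 0.05 with either tool (0.34, SE 0.09, adjusted p = 0.118 with edgeR). Few genes moved at all at this step, with 0.811% called higher and 0.0466% lower.

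From the early to the late band Mcl1 made its main step, with 1.65 (SE 0.10, adjusted p = 4.01e-10) with TMM and 1.46 (SE 0.11, adjusted p = 1.65e-08) with library size. Its CPM went from 28.1 to 83.5 in the young, from 28.8 to 77.3 in the control and from 19.1 to 50.1 in the old library. Bcl2l1 rose by 0.65 (SE 0.16, adjusted p = 0.00213) and by 0.43 (adjusted p = 0.0364) with library size, and Bid rose by 0.46 (SE 0.10, adjusted p = 0.00101), which library size left at 0.23 (adjusted p = 0.0511). Of all genes 20.5% were called higher and 20.7% lower, and library size moved the median gene by -0.22. Without the old library Bcl2l1 and Bid had adjusted p of 0.0819 and 0.0892. No member was called lower by edgeR with TMM, where 3 (Bak1, Bax and Bcl2) passed an unadjusted p of 0.05 and DESeq2 called 1 (Bcl2, at -1.004, adjusted p = 0.0442). With library size edgeR called all 3 lower, Bak1 at -0.43 (adjusted p = 0.000543), Bax at -0.45 (adjusted p = 0.00474) and Bcl2 at -1.22 (adjusted p = 0.02), beside 33.2% of all genes lower and 13.1% higher.

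In single cells the same 2 genes showed the change as shares of cells with a UMI, after each cell was thinned to 3000 UMIs. Mcl1 was found in 7.59% (6.21 to 9.17), 5.83% (4.69 to 7.16) and 6.27% (4.86 to 7.93) of the high-Mpo cells of the young, control and old library. It was found in 22.8% (18.8 to 27.2), 25.8% (21.2 to 30.9) and 15.7% (13.9 to 17.5) of the late cells. Bax was found in 34.6%, 44.6% and 44.4% of the high-Mpo cells and in 9.93%, 10.2% and 10.7% of the late cells. Before thinning the shares of Mcl1 were 27.0%, 21.1% and 22.6% in high-Mpo and 38.0%, 34.8% and 33.1% in late cells. Mcl1 and Bax are broadly expressed in blood cells, so no class could serve as a negative and the background from free RNA was not measured.

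Dividing cells were compared with non-dividing cells within the low band, by 12 mitotic genes that are no members. The cycling class held 1447 to 3659 cells per library and the non-cycling class 105 to 648. Mcl1 was lower in cycling cells, by 0.50 on the log2 scale with TMM (SE 0.14, adjusted p = 0.00473), beside 14.1% of all genes called lower and 15.3% called higher. Its levels were 21.8 against 24.7 CPM (young), 22.9 against 30.7 CPM (control) and 16.0 against 13.2 CPM (old), so only the young and control library lay in that direction on the CPM scale. The call was lost with library size (-0.26, adjusted p = 0.14), with DESeq2 (adjusted p = 0.141) and without the control library (-0.26, adjusted p = 0.545). Bax, Bak1 and Bid had -0.13, -0.11 and 0.07 with TMM and 0.12, 0.13 and 0.31 with library size, and no member was called higher by edgeR or DESeq2, or at an unadjusted p of 0.05. Of the members, 9 were tested, as Bcl2a1d had too few UMIs.

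Between the old and young libraries the bands differed in size, and Mcl1 and Bax depend on the band, so ratios within bands follow the counts over all bands. The low band held 38.7% of the kept young cells, 61.0% of the control cells and 21.2% of the old cells, and the late band 6.10%, 3.44% and 16.96%. Without trimming by UMI count the late bands held 808 (young), 469 (control) and 1719 (old) cells, against 403, 333 and 1627 with it. The low bands held 2556, 5898 and 2035 cells. With the band limits halved they held 641, 2848 and 297, and with them doubled 4299, 7132 and 5274. Over all bands together no member passed 1.5 times in any of the 3 comparisons of libraries, among the 5 members with at least 10 CPM. For the old over the young library 5.04% of all genes compared were past 1.5 times higher and 10.4% lower, for control over young 2.45% and 3.74%, and for old over control 5.4% and 8.7%.

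Mcl1 had its lowest level in the old library in each of the 5 bands. Its log2 ratio of old over young was -0.60 (exact 95% interval -0.82 to -0.38) in the high-Mpo, -0.40 (-0.70 to -0.10) in the mid-Mpo, -0.44 (-0.62 to -0.26) in the low, -0.56 (-0.73 to -0.39) in the early and -0.74 (-0.96 to -0.51) in the late band. Against the control library the ratios were -0.12 (-0.35 to 0.12), -0.43 (-0.68 to -0.18), -0.54 (-0.70 to -0.39), -0.59 (-0.83 to -0.35) and -0.62 (-0.88 to -0.36). The intervals thus lay below 0 in all 5 bands against young and in 4 bands against control. The control and young libraries, which share their age label, differed by -0.48 (-0.69 to -0.27) in the high-Mpo band and by -0.11 to 0.11 in the other bands, with intervals that held 0. The median gene had ratios between -0.14 and 0.09 in these comparisons.

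Cells of the old library held more UMIs, and per cell the difference in Mcl1 was smaller. In the late bands 1000 cells gave 536 (young), 438 (control) and 415 (old) Mcl1 UMIs, and in the early bands 251, 206 and 235. Trimming by UMI count had left 403 of 808 late cells in the young, 333 of 469 in the control and 1627 of 1719 in the old library. The part of this trimming in the values per cell was not tested. Over all bands the log2 ratio per cell was -0.06 for old over young and 0.15 for old over control. These 2 ratios mix bands of different size. Within bands, Mcl1 UMIs per cell were fewer in the old than in the young library in all 5 bands. Against the control library the gaps were small and went both ways. Per 1000 cells, old against control had 237 against 242 in the mid-Mpo, 220 against 232 in the low and 415 against 438 in the late band. In the high-Mpo and early bands the old library had more, at 263 against 237 and 235 against 206. No interval was computed for these counts, so their directions are uncertain.

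Bax was lower in the young library than in both others in the first 3 bands. Control over young gave 0.46 (0.38 to 0.54), 0.61 (0.48 to 0.75) and 0.32 (0.23 to 0.40), and old over young 0.34 (0.26 to 0.42), 0.50 (0.37 to 0.63) and 0.33 (0.23 to 0.43). The young and the control library, which differ in these 3 bands, have the same age label. In the early bands the old library was highest instead, at 58.2 CPM (56.0 to 60.5). There the young library had 51.1 CPM (47.6 to 54.8) and the control library 51.6 CPM (46.0 to 57.7). The part of age in either pattern was not tested. In the late bands all intervals of Bax held 0.

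Bcl2 was lower in the old library, with 252 UMIs over the bands against 303 in the young and 593 in the control library. Over all bands the log2 ratio was -1.08 (-1.33 to -0.84) against young and -1.56 (-1.77 to -1.34) against control, but control itself lay 0.47 (0.27 to 0.68) above young. Old over control was below 0 with its whole interval in each of the 5 bands, from -0.77 (-1.36 to -0.21) in the high-Mpo to -1.83 (-3.24 to -0.28) in the late band. Old over young lay below 0 with its interval in the first 4 bands, while the late band had 14 UMIs against 1 (1.43, -1.29 to 6.83). Bcl2 stayed under 10 CPM in all 3 libraries and so was not among the genes counted by the limit of 1.5 times. Monocyte markers left in the bands summed to 32.6 (young), 7.97 (control) and 14.2 CPM (old), and NK and T cell markers other than Nkg7 each stayed at or below 6.96 CPM in every band. Cd3e was at 0 in the late bands. The part of such cells in the Bcl2 levels was not tested.

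**Figure D4:**
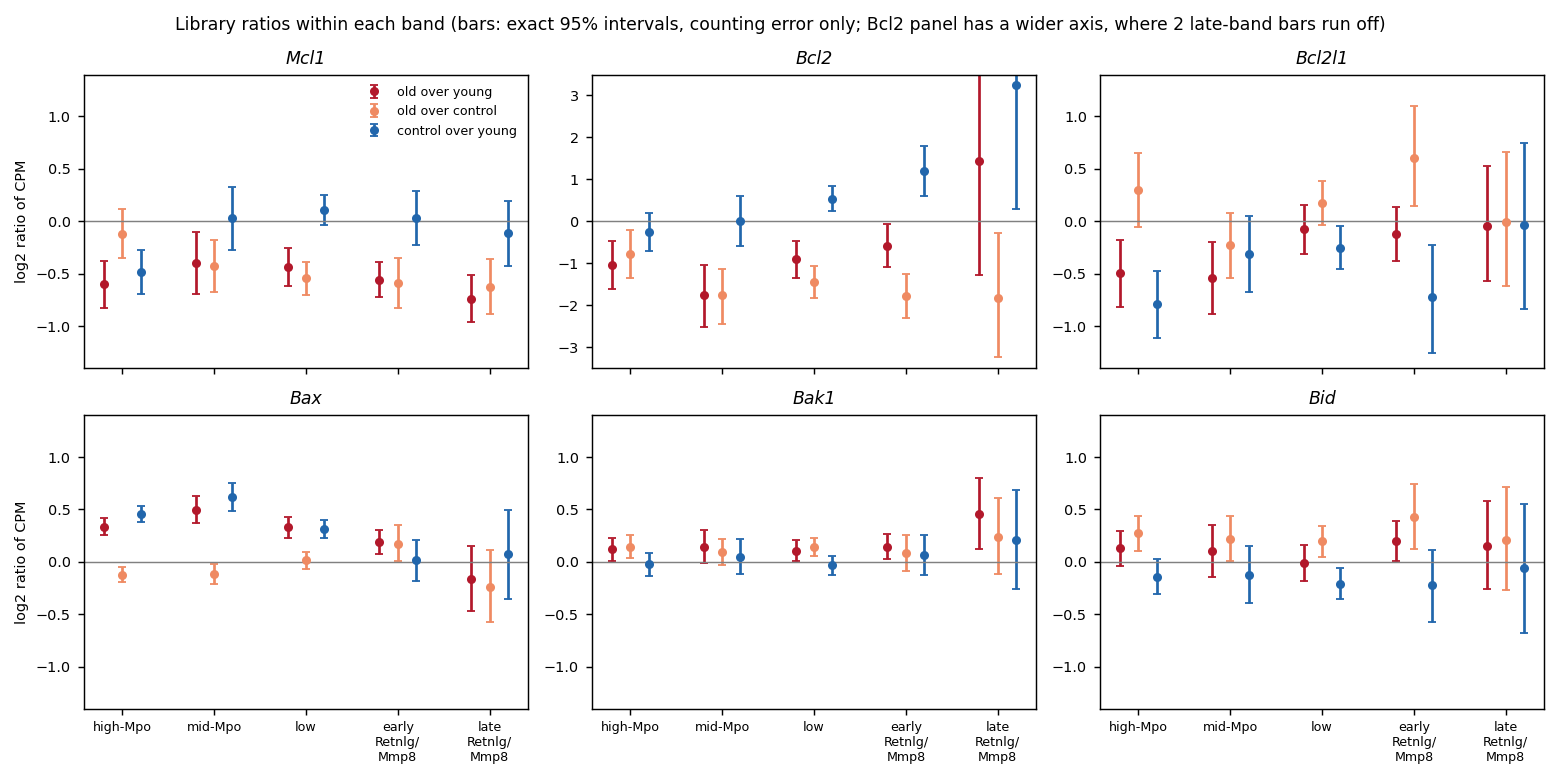
Points give the log2 ratio of CPM between 2 libraries (y axis) within each band (x axis) for 6 members, with exact 95% intervals. Mcl1 and Bcl2 lie below 0 for the old library against control in the later bands, while Bax lies above 0 for both other libraries against young in the first 3 bands.

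The make-up of the family followed these levels. The anti-apoptotic share was lowest in the old library in every band, with 12.5% against 19.9% (young) and 16.0% (control) in the mid-Mpo band, 18.01% against 24.1% and 23.6% in the low band and 20.2% against 27.4% and 27.5% in the early band. In the high-Mpo band the young library stood apart at 16.4%, and the intervals of control and old overlapped. Within bands the log2 ratios between libraries lay between -0.03 and 0.45 for Bak1 and between -0.22 and 0.42 for Bid. The upper ends were Bak1 for old over young in the late band (0.45, 0.12 to 0.80) and Bid for old over control in the early band (0.42, 0.12 to 0.74), with intervals above 0.

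The blood cells that were set aside give a scale for these levels, mainly in the young library, which held 397 monocytes, 108 B progenitors, 90 dendritic cells and 63 NK and T cells by their markers. NK and T cells had 254 CPM of Bcl2 (214 to 298), 56.3 times (45.9 to 68.8) the level of the banded cells. Of all Bcl2 UMIs of the young library 49.8% lay in the cells set aside, against 6.02% in the control and 4.18% in the old library. With these cells kept, the log2 ratio of Bcl2 for old over young moved to -1.89 and that of control over young turned from 0.47 to -0.31.

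The 3 Bcl2a1 copies were highest in dendritic cells, with 40.1 CPM (Bcl2a1a), 83.5 CPM (Bcl2a1b) and 62.6 CPM (Bcl2a1d), from 25, 52 and 39 UMIs. That was 24.5, 30.2 and 71.4 times the level of the banded young cells. Bcl2l1, known for its part in the survival of B cell and red cell precursors, had 42.6 CPM (30.8 to 57.4) in B progenitors and 24.1 CPM (14.1 to 38.7) in erythroid cells, against 12.4 CPM in the banded cells. The 28 erythroid cells of the control library held 1 UMI of Bcl2l1, 4.29 CPM (0.109 to 23.9) against 9.58 CPM in the banded cells. Mcl1 had 111 CPM in dendritic cells and 85.0 CPM in monocytes, which was close to its 83.5 CPM in the late band of the same library. Bax had 204 CPM (189 to 219) in monocytes. These values come from 1 library and were not tested.

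**Figure D5:**
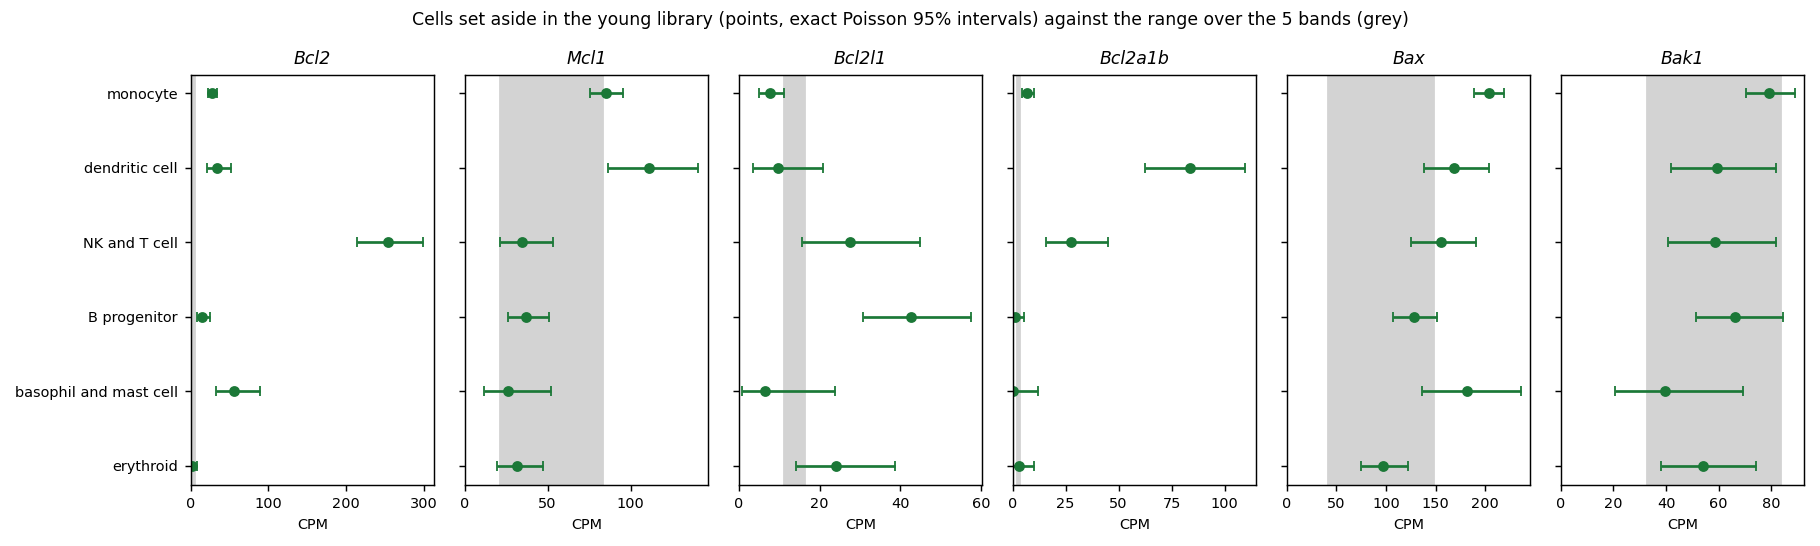
For 6 members, points give CPM (x axis) in 6 classes of cells set aside in the young library (y axis), with exact Poisson 95% intervals, and the grey area spans the 5 bands of that library. Bcl2 stands out in NK and T cells at 254 CPM and Bcl2a1b in dendritic cells at 83.5 CPM.

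Around the family, 70 other apoptosis genes in 8 lists were followed from the high-Mpo to the late band. Of the 20 other BCL2 family genes 12 were tested, 6 were higher and 3 lower with TMM, and 2 higher and 8 lower with library size, with medians of 0.17 and -0.70 on the log2 scale. Over all genes 35.3% were higher and 38.1% lower with TMM, and 16.7% and 64.7% with library size, and the counts of the lists that follow stand beside these shares. The median of all genes tested was -0.09 with TMM and -0.97 with library size. Bcl2l12 fell by 1.46 (adjusted p = 4.89e-10 with edgeR and TMM) and by 2.35 with library size, from 47.2 to 58.2 CPM down to 9.58 to 11.99 CPM. Bnip3l, a mitophagy receptor, rose by 1.10 and by 0.24 with library size, and Bnip2 rose by 0.69, whereas with library size it had -0.17 (adjusted p = 0.0686). Bad, with a mean of 61.0 CPM over the sums, rose by 0.37 (adjusted p = 0.00046 with edgeR and TMM). Library size moved the median gene by -0.88 between these bands, so the direction of Bad can depend on the scaling. Of the scarce genes, Bbc3 (mean 1.85 CPM) rose by 2.64 and Pmaip1 (mean 1.82 CPM) fell by 2.14 with TMM.

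Downstream of the pore, the messages of cytochrome c, AIFM1 and HTRA2, which mitochondria release, fell. Of 14 caspase and apoptosome genes 5 were higher and 7 lower with TMM, and 2 and 10 with library size, near the shares over all genes. Cycs, which encodes cytochrome c, went from 653, 1049 and 686 CPM in the high-Mpo bands of the young, control and old library to 191, 251 and 137 CPM in the late bands (log2 -1.22, SE 0.09, adjusted p = 3.47e-10 with TMM and -2.06 with library size). Aifm1 changed by -1.80 and Htra2 by -1.62 with TMM, and by -2.69 and -2.49 with library size. Of the 3 genes of the VDAC channel, Vdac3 (-0.58) and Vdac1 (-0.55) fell with TMM, and all 3 were lower with library size, Vdac3 at -1.43 and Vdac1 at -1.41.

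Among the inhibitors of caspases, Birc3 and Xiap rose on both scales. Of 7 caspase inhibitor genes 5 were higher with TMM (35.3% of all genes), and 2 were higher and 2 lower with library size (16.7% and 64.7% of all genes). Birc3 rose by 2.47 (SE 0.18, adjusted p = 1.61e-10), from 6.25, 6.05 and 7.44 CPM to 16.6, 24.3 and 20.8 CPM, and Xiap by 1.37 (adjusted p = 2.06e-08), both with TMM. With library size the values were 1.60 and 0.50. In the death receptor arm 6 of 8 genes were higher and 1 lower with TMM (35.3% and 38.1% of all genes), and 1 and 4 with library size (16.7% and 64.7%). The largest change in this list was that of the death receptor gene Fas, which rose by 3.06 (adjusted p = 1.69e-13 with edgeR and TMM). Its mean of 8.76 CPM lay under the limit of 10 CPM for naming. Cflar, an inhibitor of caspase 8, rose by 1.05 with TMM and had 0.19 (adjusted p = 0.0723) with library size. Tnfrsf1a had 0.85 and -0.01, and Fadd, the adaptor, fell by 0.65 and 1.54.

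Of 5 genes for the turnover of MCL1 protein 4 were tested, of which 1 was higher and 1 lower with TMM, and 3 were lower with library size. Huwe1, a ubiquitin ligase for MCL1, fell by 1.12 (adjusted p = 2.91e-07) with TMM and by 1.998 with library size. The gene higher with TMM was Fbxw7 (mean 3.17 CPM), at 0.89 (adjusted p = 0.00417 with edgeR). With library size no gene of this list was called higher. Of 7 genes of p53 and its targets 4 were tested, of which 2 were higher and 1 lower with TMM and 1 and 1 with library size. Trp53, the gene of p53, fell by 1.82 (SE 0.18, adjusted p = 3.04e-08) with TMM and by 2.69 with library size, from 83.3, 88.0 and 75.7 CPM to 18.6, 16.9 and 8.61 CPM. Its target Mdm2 rose by 1.22 with TMM and 0.34 with library size, and Ccng1 had 0.85 and -0.03. Of 6 receptors for survival cytokines 4 were higher and 1 lower with TMM, and 3 and 2 with library size. Csf3r, the receptor of the neutrophil growth factor G-CSF, rose by 1.32 and 0.46, Csf2rb by 1.26 and 0.39, and Csf2ra had 0.91 and 0.06 with the 2 scalings.

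Between libraries, 3 to 8 genes of each list had at least 10 CPM in either library and were compared. At most 1 gene of a list passed 1.5 times in each direction over all bands. Of all genes compared, 5.04% were higher and 10.4% lower for old over young. The shares were 2.45% and 3.74% for control over young, and 5.4% and 8.7% for old over control. The lists were not tested against these shares, and the genes named here were chosen after their values were seen. For old over young Xiap (log2 ratio -0.61), Usp9x (-0.59), Trp53 (-0.72) and Kit (-2.33) were lower and Csf2rb (0.93) was higher. For control over young Cycs (0.59) and Csf2rb (0.63) were higher and Kit (-0.90) was lower, and for old over control Cycs (-0.81) was lower and Il3ra (0.86) higher. The bands differed in size between the libraries, and the part of this in these ratios was not tested.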

How the data were processed

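The authors sequenced 3 libraries with the 10x Chromium 3′ v2 kit, aligned them with STAR and made the deposited matrices of whole UMI counts with Cell Ranger 2.1.0 on mm10, without normalization. Following the study's methods, cells were required to have 200 genes, at most 20% of UMIs from mitochondrial genes, and a UMI total between percentiles 5 and 95, taken over young and old together and over control alone. No doublet caller was run. Cells carrying markers of other cell types were set aside and the others banded as described. The members, lists and limits were chosen with earlier results of these data known, and all 10 members are described. Of each list of other genes, the 3 with the largest change among those called at an adjusted p below 0.05 in late against high-Mpo bands, with a mean of at least 10 CPM, were named. Bad, Bbc3, Pmaip1, Fas and Fbxw7 were named in addition, after their values were seen.

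UMIs were summed per library and band and fitted with the edgeR (4.0.16) quasi-likelihood test, TMM, filterByExpr and Benjamini-Hochberg adjustment over all genes, with library as a block. DESeq2 (1.42.0) was an alternative. With library as a block, p-values of the fits rest on the spread left among the sums after the level of each library was removed. They come from 3 libraries only and do not cover the spread between mice. The young and control libraries share an age label, and the old library has another. The fit was tested on simulated data with 200 changed genes, raised and lowered in equal number, and no difference between libraries. That setting does not cover a contrast in which most genes change, so it cannot decide whether TMM holds there. Libraries were compared by log2 ratios with exact conditional binomial intervals. Totals of 74708327 to 119588365 UMIs after the quality limits set the precision. Python 3.11.15, numpy 2.4.6, scipy 1.17.1 and pandas 2.3.3 were used. Sequences were read from GENCODE M21 on GRCm38.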

Additional observations from a re-analysis of the deposited data

How the results depend on the processing

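With library size in place of TMM the late band had 1795 genes higher and 6943 lower than the high-Mpo band (3791 and 4090 with TMM) and 5 members lower (3 with TMM). Bid turned to -0.74 on the log2 scale in late over high-Mpo, and Bak1 to -0.23 in mid-Mpo over high-Mpo. In cycling over non-cycling cells, library size gave 2885 genes higher, 656 lower and 0 members lower, and DESeq2 gave 787, 818 and 0, against 1461, 1346 and 1. Members lower there were 2 with the other blood cells kept and 3 with the cycle limits doubled. Members called from high-Mpo to mid-Mpo went from 5 to 3 without trimming by UMI count and to 1 with band limits doubled. From mid-Mpo to low they went from 2 to 5 with library size, 1 with limits halved and 5 with limits doubled. From low to early they went from 0 to 1 without the filter on low sums and to 1 with limits doubled. From early to late they went from 3 to 5 with library size, without the filter on low sums, and without trimming. Leaving out 1 library at a time gave 859 to 1441 genes higher, 714 to 1312 lower and 0 to 1 members lower in cycling cells, and 3 to 4 members called from high-Mpo to mid-Mpo. It gave 3006 to 3617 genes higher, 3190 to 3940 lower and 2 to 3 members lower in the late band. Apart from the effect of fewer samples, the cause was not tested.

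Between libraries, old over young had 282 genes higher and 584 lower past 1.5 times, and 661 and 241 per cell, 117 and 98 with a minimum of 50 CPM and 119 and 162 with a limit of 2 times. With bands weighted equally 1 member (Mcl1, at -0.61) was lower. Control over young had 136 and 208, against 46 and 50 with 50 CPM and 22 and 101 with 2 times, and 378 lower with other blood cells kept. Old over control had 294 and 474, against 972 and 111 per cell, 99 and 113 with 50 CPM and 105 and 76 with 2 times. In the order young, control and old, the share of high-Mpo cells with an Mcl1 UMI was 13.4%, 10.0146% and 8.57% at 5000 UMIs and 27.0%, 21.1% and 22.6% without thinning. For late cells it was 30.1%, 30.4% and 21.7481% at 5000 UMIs and 38.0%, 34.8% and 33.1% without thinning. For Bax the shares were 50.4%, 63.2% and 59.7% of high-Mpo cells and 13.6%, 18.5% and 16.3% of late cells at 5000 UMIs, and 77.9%, 85.4% and 92.0% and 21.6%, 19.8% and 25.4% without thinning. Cells with fewer than 5000 UMIs were left out of the shares at 5000 UMIs. The median late cell had 5068 UMIs (young), 4642 (control) and 7865 (old), so many late cells were left out. Shares rise with the UMIs kept per cell, and the part of the cells left out was not tested. Of 576 member folds under alternatives 520 stayed on their side of the threshold, 29 newly passed it and 25 no longer passed it. A further 2, those of Bid and Bak1 given above, changed sign and passed it. Folds that passed in neither setting count among the 520 even where their sign changed. Such changes of sign include Bcl2a1a, Bcl2a1b and Bcl2l11 in late over high-Mpo with library size. No paired analysis was possible because each condition is 1 library, and the library was already a block in every fit between bands. Members under 10 CPM rest on few UMIs, and 1 library per condition leaves the spread between mice unmeasured.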
